A study of Mus musculus with 6 samples.

Results

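The genes described here are 9 genes of the MHC class II presentation pathway: H2-Aa, H2-Ab1 and H2-Eb1 (the classical chains), Cd74 (the invariant chain), H2-DMa and H2-DMb1 (the peptide exchanger H2-DM), H2-Oa and H2-Ob (its modulator H2-O) and Ciita (the class II transactivator). They were chosen by name, and every probe whose symbol in the platform annotation is one of these names was taken. This gave 13 probes for 9 of the 16593 genes on the array, with 4 probes for H2-Ab1, 2 for Cd74 and 1 for each of the other members. All 13 probes were detected above background on all 6 arrays.

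The study compared the thymus of Rag2/pfp knockout mice (3 samples) with that of wild-type mice (3 samples) on Illumina MouseRef-8 version 2 bead arrays, which read 1 labelled RNA sample each. The labels name the genotype as Rag2/pfp KO, where pfp is the older symbol of the perforin gene Prf1, and the comparison asks how the thymus transcriptome differs when both genes are disrupted. The labels state neither strain, age and sex nor whether animals were pooled or each sample came from its own mouse, so p-values reflect the scatter among these arrays, part of which may be technical. Each knockout array had 13729 to 13878 probes above background and each wild-type array 13798 to 13834, of 25697, and precision is limited by having 3 arrays per genotype.

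MHC class II molecules carry peptides from the endosomal route to the cell surface, where CD4 T cells read them. The alpha and beta chains are assembled on the invariant chain Cd74. Cathepsins trim it to a short peptide that H2-DM then removes, and H2-O binds H2-DM and restrains it. Ciita, the master switch of the pathway, is recruited by RFX, NF-Y and CREB proteins to a shared promoter module with an X box and a Y box. In the thymus, class II is displayed by cortical epithelium, which selects CD4 T cells, and by medullary epithelium, dendritic cells, macrophages and B cells, which take part in tolerance. H2-O is known from B cells and medullary epithelium in particular. Rag2 is needed to rearrange antigen receptor genes, and without it thymocytes stop before they carry an alpha-beta receptor and B cells do not mature. Perforin is the pore-forming protein of cytotoxic lymphocytes.

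The class II promoter module could be read for the members in the RefSeq promoter table, which gives 250 bases before and 50 after each annotated start on GRCm38.p6. Of the 9 members, 6 were matched by symbol. The X box core was searched as AGNNACNNATG and the Y box core as GATTGG, both strands, and the searched letters do not overlap each other in the excerpts. Among all 32851 promoters, 3.09% held the X box core, 16.1% the Y box core and 0.484% both. Excerpts of 130 bases, ending 21 bases before the start, are shown with capitals marking the motif matches. They set the matches of H2-Ob, the member lower in the knockout, beside those of its partner chain H2-Oa. H2-DMb1 and H2-Eb1 of the same region are shown too.
H2-Ob, chr17:34238755-34238884, plus strand: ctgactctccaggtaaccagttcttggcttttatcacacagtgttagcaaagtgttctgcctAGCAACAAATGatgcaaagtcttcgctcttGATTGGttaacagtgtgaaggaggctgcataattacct
H2-Oa, chr17:34092229-34092358, plus strand: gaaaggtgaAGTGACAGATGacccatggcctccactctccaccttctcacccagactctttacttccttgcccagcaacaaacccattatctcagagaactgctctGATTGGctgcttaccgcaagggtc
H2-DMb1, chr17:34153041-34153170, plus strand: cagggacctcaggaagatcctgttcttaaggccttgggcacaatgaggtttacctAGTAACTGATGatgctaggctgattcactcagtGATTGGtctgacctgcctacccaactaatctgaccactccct
H2-Eb1, chr17:34305717-34305846, plus strand: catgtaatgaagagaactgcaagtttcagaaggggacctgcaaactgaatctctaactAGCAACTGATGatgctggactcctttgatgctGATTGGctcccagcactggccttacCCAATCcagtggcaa

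The first base of the X box core lay 88 bases before the start in H2-Ob, 95 in H2-DMb1 and 92 in H2-Eb1, and the Y box core followed 30, 33 and 32 bases further on. In H2-Oa the match to the X box core lay 141 bases before the start and the Y box core 97 bases further on. The marked H2-Oa matches thus lack the spacing of the other promoters shown and may not form a module. An X box with other letters nearer the Y box would be missed by this search. The H2-Oa excerpt does hold the letters agcaacaaacc 33 bases before its Y box core, the spacing seen in H2-DMb1. They resemble the X box match of H2-Ob except at their end, and do not match the searched core. Whether they act as an X box was not tested. The H2-Eb1 promoter held another Y box core on the minus strand, 35 bases before the start. H2-Aa held the Y box core 49 bases before the start without a match to these X box letters, and of the H2-DMa windows 1 held neither motif and the other held the Y box core 199 bases before its start. Both motifs were thus present in promoters of members with positive and with negative differences, and a match is a description of letters and not of a bound site.

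Class II genes did not all differ in the same direction between the genotypes. Ciita rose 1.95-fold in the knockout thymus and H2-Ob fell by 1.96 on the log2 scale, which is 3.9-fold. The other 7 members had positive differences, of 0.20 to 0.79 on the log2 scale, and none of them passed limma with Benjamini-Hochberg adjustment at 0.05. Thus 1 of 9 members was called higher and 1 lower, against 6.09% of all 9849 tested genes called higher and 5.57% called lower. The median difference of the 9 members was 0.58, beside 0.01 over all tested genes. With the replicate number as a block, 4 members were called higher (Ciita, H2-DMa, H2-Ab1 and H2-DMb1) and 1 lower (H2-Ob), where 12.4% and 11.8% of all tested genes were called. The signals of the genotypes did not overlap for these same 5 members, 4 of them higher and 1 lower, and 16.9% of all tested genes were higher and 17.3% lower in this sense. H2-Ab1 is counted here by its brightest probe, and its other probes overlapped. Of the 9 members, 7 were higher in knockout in each same-numbered pair of arrays, as were 31.0% of all tested genes. In bulk tissue, fewer cells of a type and less RNA per cell cannot be told apart.

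**Figure D1:**
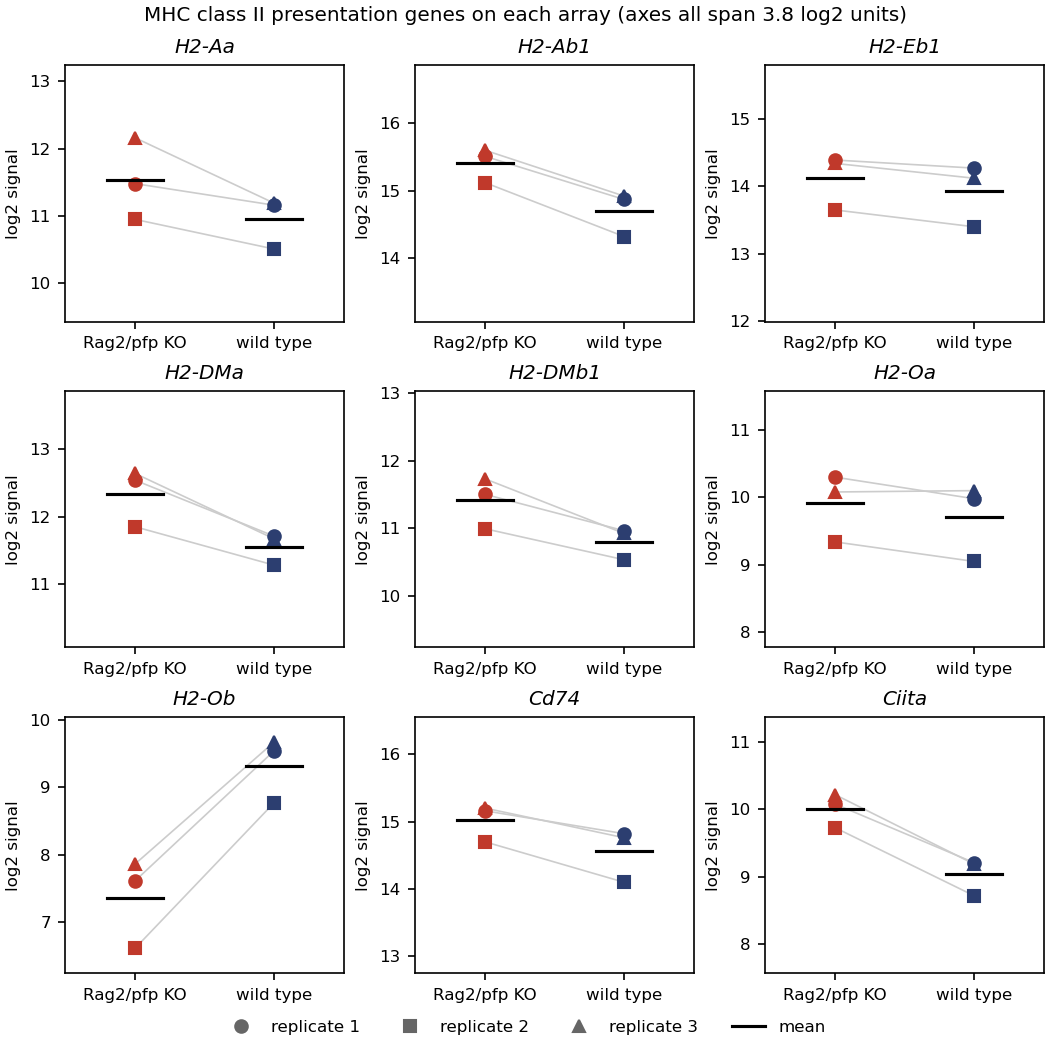
Log2 signal of the probe that represents each of the 9 members on each array, with Rag2/pfp KO (red) left of wild type (blue), symbols for the replicate number, grey lines between same-numbered arrays and black bars for means (n = 3 each); all axes span 3.8 log2 units. H2-Ob lies at 6.61 to 7.86 in knockout and 8.77 to 9.67 in wild type, and Ciita at 9.73 to 10.22 in knockout and 8.72 to 9.21 in wild type.

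Of the classical chains, H2-Ab1 (beta chain of I-A, chromosome 17) had log2 signals of 15.51, 15.12 and 15.60 in the knockout thymus and 14.87, 14.32 and 14.92 in wild type by its brightest probe, ILMN_1226525. All 3 knockout arrays lay above all 3 wild-type arrays. The difference was 0.71 (SE 0.23, 95% interval 0.15 to 1.28, n = 3 each), with a limma adjusted p of 0.108, and of 0.0217 with the replicate block. The other 3 H2-Ab1 probes gave 0.67 to 0.71 as well, but their genotypes overlapped, because the lowest knockout array lay below the highest wild-type array. Their limma adjusted p-values were 0.192, 0.233 and 0.243 without the block and 0.0208, 0.0306 and 0.0304 with it. The 4 probes of H2-Ab1 thus agreed in size and differed in the spread between arrays.

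H2-Aa, the alpha chain that pairs with H2-Ab1, had log2 signals of 11.48, 10.95 and 12.16 in knockout and 11.16, 10.51 and 11.19 in wild type. The knockout values spread widely and the lowest of them lay within the wild-type range. The difference of 0.58 (SE 0.36) had a limma adjusted p of 0.347, and of 0.078 with the replicate block. Leaving out 1 array in turn moved the H2-Aa difference between 0.26, without knockout replicate 3, and 0.87, without knockout replicate 2. H2-Eb1, the beta chain of I-E, had 14.39, 13.65 and 14.34 in knockout and 14.27, 13.40 and 14.12 in wild type. The ranges of H2-Eb1 nearly coincided, with a difference of 0.20 (SE 0.32, 95% interval -0.56 to 0.96) and a limma adjusted p of 0.727. H2-Ea, the alpha chain of I-E, was not above background on any of the 6 arrays; some mouse strains carry no functional copy of it.

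Cd74, which chaperones the new chains and is encoded on chromosome 18, had log2 signals of 15.16, 14.70 and 15.20 in knockout and 14.82, 14.10 and 14.76 in wild type by probe ILMN_1221817. The lowest knockout array lay below 2 of the wild-type arrays, so the genotypes overlapped. Both Cd74 probes gave a difference of 0.46 (SE 0.26 and 0.25), with limma adjusted p-values of 0.305 and 0.288, and of 0.064 and 0.0544 with the block. The difference of probe ILMN_1221817 was 0.23 without wild-type replicate 2 and 0.62 without knockout replicate 2, the ends of its range when each array was left out in turn.

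Both chains of H2-DM, the peptide exchanger, had higher signals in knockout. H2-DMa had log2 signals of 12.54, 11.85 and 12.64 in knockout and 11.71, 11.28 and 11.67 in wild type. H2-DMb1 had 11.50, 10.99 and 11.73 in knockout and 10.96, 10.53 and 10.92 in wild type. Neither gene overlapped between the genotypes, although for H2-DMb1 the gap between the lowest knockout and the highest wild-type array was narrow. The differences were 0.79 (SE 0.26) for H2-DMa and 0.60 (SE 0.24) for H2-DMb1, with limma adjusted p-values of 0.112 and 0.170, and of 0.0236 and 0.0397 with the replicate block. Without knockout replicate 2, H2-DMa passed the unblocked limma test, with a difference of 1.03 and an adjusted p of 0.0364. H2-DMb2, a second beta chain of H2-DM that is no member, differed by 0.47 (SE 0.35, adjusted p 0.442, limma).

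The chains of the modulator H2-O went separate ways. H2-Ob, its beta chain, had log2 signals of 7.61, 6.61 and 7.86 in knockout and 9.54, 8.77 and 9.67 in wild type, from deposited intensities of 342, 208 and 337 in knockout and 869, 581 and 970 in wild type. Every knockout array lay below every wild-type array. H2-Ob fell by 1.96 on the log2 scale (SE 0.40, 95% interval -2.93 to -1.0, n = 3 each), with a limma adjusted p of 0.0314, and of 0.00511 with the replicate block. Within the same-numbered pairs the H2-Ob difference was -1.92, -2.16 and -1.80. The alpha chain H2-Oa had 10.30, 9.34 and 10.08 in knockout and 9.98, 9.05 and 10.10 in wild type. Its values overlapped and differed by 0.20 (SE 0.37, 95% interval -0.71 to 1.10), with a limma adjusted p of 0.775.

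The H2-Ob call depended on which arrays were kept. Leaving out 1 array in turn, its difference stayed between -2.24 and -1.59, and the limma adjusted p was 0.0403 without knockout replicate 2 and 0.0257 without wild-type replicate 2. It was 0.102 without knockout replicate 1, 0.0515 without knockout replicate 3, 0.120 without wild-type replicate 1 and 0.126 without wild-type replicate 3. With no detection filter, so that all probes were tested, the H2-Ob adjusted p was 0.0509.

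Ciita, on chromosome 16, had log2 signals of 10.08, 9.73 and 10.22 in knockout and 9.21, 8.72 and 9.19 in wild type, from deposited intensities of 1316, 846 and 1260 in knockout and 716, 569 and 730 in wild type. No knockout array fell into the wild-type range. The difference was 0.97 (SE 0.22, 95% interval 0.44 to 1.49, n = 3 each), with a limma adjusted p of 0.0408, and of 0.0118 with the replicate block. Within the same-numbered pairs Ciita differed by 0.87, 1.00 and 1.02. Leaving out 1 array in turn gave differences of 0.81 to 1.11. The limma adjusted p of Ciita was 0.0376 without knockout replicate 2, and it was over the threshold without knockout replicate 1 (0.153) or 3 (0.110) and without wild-type replicate 1 (0.111), 2 (0.0551) or 3 (0.124). Median centring gave a Ciita adjusted p of 0.0568, and testing all probes gave 0.0509.

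**Figure D2:**
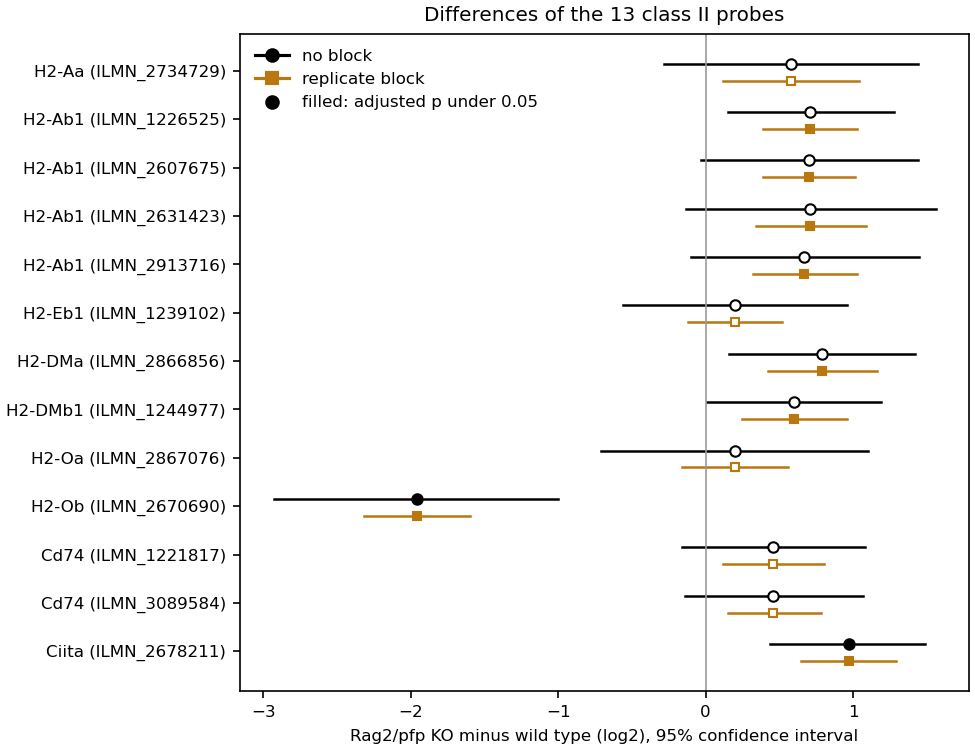
Difference in log2 signal, Rag2/pfp KO minus wild type, with its 95% confidence interval for each of the 13 probes, without a block (black circles) and with the replicate number as a block (brown squares); filled symbols passed an adjusted p of 0.05. H2-Ob at -1.96 is the sole probe left of 0, and it is filled in both fits, as is Ciita at 0.97.

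Differences between members were also set against each other within arrays, which removes what raises or lowers all class II probes of a sample alike. The mean of the H2-O chains minus the mean of the H2-DM chains was -3.06, -3.45 and -3.21 in knockout and -1.58, -1.99 and -1.41 in wild type. Only the change between genotypes is read from these values, since probes differ in brightness. The quantity was lower by 1.58 log2 units in knockout, without overlap, and the exact two-sided permutation test gave p = 0.1, the smallest that 3 against 3 arrays allow (0.15 after adjustment over the 3 quantities tested). The quantity joins the lower H2-Ob (-1.96) with the higher H2-DMa (0.79) and H2-DMb1 (0.60), while H2-Oa differed by 0.20. Of the H2-O chains, H2-Ob was the one set apart from H2-DM without overlap. H2-Ob minus H2-DM was -4.41, -4.81 and -4.32 in knockout and -1.80, -2.13 and -1.63 in wild type. H2-Oa minus H2-DM overlapped, at -1.72, -2.08 and -2.10 in knockout and -1.36, -1.85 and -1.20 in wild type. Ciita minus the mean of the 3 classical chains was -3.71, -3.51 and -3.82 in knockout and -4.22, -4.02 and -4.21 in wild type. This difference of 0.47 also showed no overlap and had the same exact permutation p of 0.1. The classical chains minus H2-DM, in contrast, overlapped, at 1.78, 1.82 and 1.85 in knockout and 2.10, 1.84 and 2.11 in wild type (difference -0.20, exact permutation p = 0.2).

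Within each genotype the members moved together across the arrays. Replicate 2 had the lowest signal of all 9 members in knockout, 0.28 to 0.75 log2 units below the genotype mean, and of all 9 members in wild type, 0.27 to 0.66 below it. Among all tested genes, 42.1% were lowest on replicate 2 in both genotypes. Knockout replicate 3 was the highest for 7 of the 9 members. The same arrays differed in transcripts of tissue next to the thymus. The mean log2 signal of 5 heart genes was 10.46, 12.29 and 4.80 in knockout and 5.11, 12.13 and 6.90 in wild type. That of 4 fat genes was 12.31, 13.26 and 7.66 in knockout and 8.71, 13.22 and 10.50 in wild type. Heart and fat transcripts were thus highest on replicate 2 of both genotypes, where class II signals were lowest. Knockout replicate 1 also had high heart and fat means, at 10.46 and 12.31. There the median deviation of the members from their genotype mean was 0.14, and no member was lowest. With the heart mean as a covariate, chosen after seeing the data, 5 members were called higher (Ciita, H2-DMa, H2-Ab1, H2-DMb1 and H2-Aa) and 1 lower (H2-Ob), beside 12.5% and 11% of all tested genes. Ciita then differed by 1.04 and H2-Ob by -1.81 (limma adjusted p 0.00521 and 0.00447); the part of the fat transcripts was not tested. Without replicate 2 of either genotype, 4 members were called higher and 1 lower, when 15.2% of all tested genes were called higher and 14.0% lower.

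**Figure D3:**
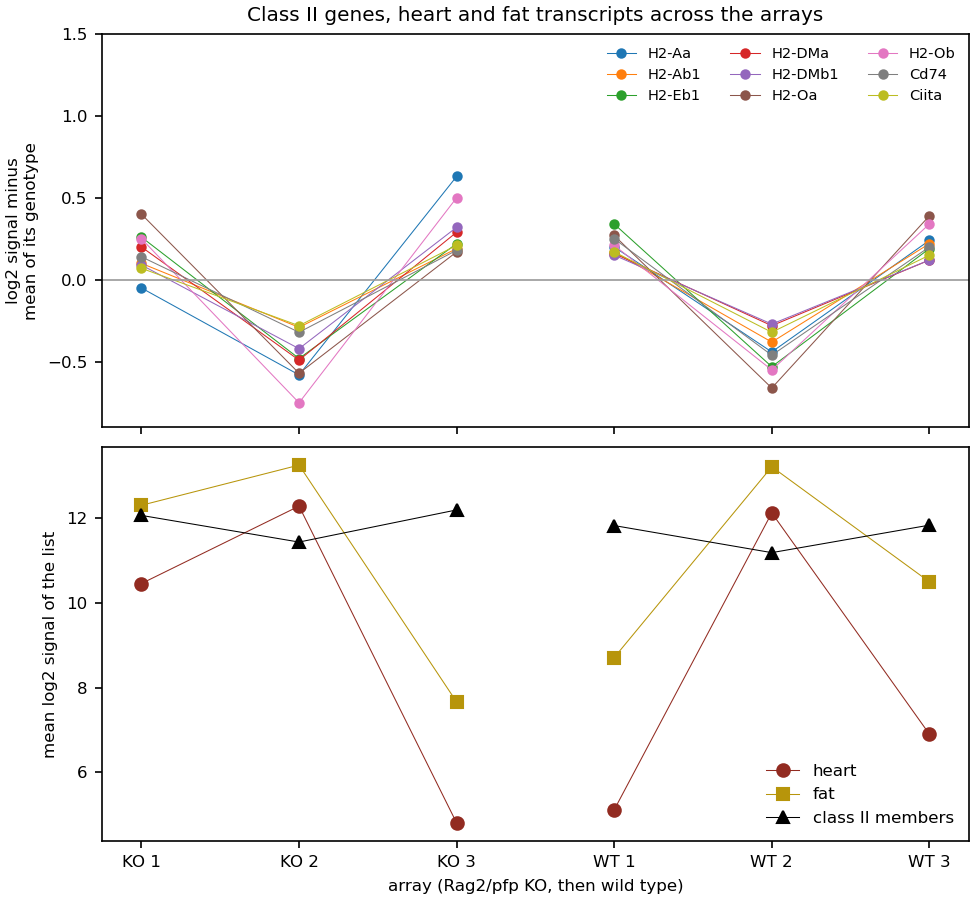
Upper panel, log2 signal of each member minus the mean of its genotype on the 3 Rag2/pfp KO and the 3 wild-type arrays; lower panel, mean log2 signal of the heart list, the fat list and the 9 class II members on the same arrays. Thin lines link values of 1 gene or list and imply no order; all members are lowest on replicate 2 of each genotype, where the heart mean reaches 12.29 in knockout and 12.13 in wild type.

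Partners of the pathway were followed in a list of 33 genes, of which 30 could be tested; 4 were called higher and 4 lower, against 6.09% and 5.57% of all tested genes, and their median difference was -0.35. With the replicate block 4 were higher and 7 lower, against 12.4% and 11.8% of all tested genes. Without overlap between the genotypes 4 were higher and 11 lower, against 16.9% and 17.3% of all tested genes. Among the lysosomal proteases and the reductase that ready antigen and the invariant chain, 1 of 8 was called. Ctsl, the cathepsin that trims the invariant chain in cortical epithelium, had log2 signals of 12.47, 11.72 and 12.43 in knockout and 10.37, 9.05 and 10.45 in wild type. It rose by 2.25 (SE 0.43, limma adjusted p = 0.0268). Cathepsin B (Ctsb, -0.12), legumain (Lgmn, -0.12) and the thiol reductase Ifi30 (-0.37) overlapped and did not pass. Cathepsin H (Ctsh, -0.51) and cathepsin Z (Ctsz, -0.69) were lower in knockout without overlap and did not pass either (limma adjusted p 0.15 and 0.115). Ctss, the cathepsin with this task in dendritic cells and B cells, was detected on only 2 knockout arrays and 1 wild-type array, so its probe says little here.

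Of 3 genes that set the lifetime of class II at the cell surface, 2 were called higher. Cd83, which shields class II from ubiquitination, had log2 signals of 13.33, 12.77 and 13.50 in knockout and 11.08, 10.78 and 11.25 in wild type. Cd83 rose by 2.16 (SE 0.25, limma adjusted p = 0.00698). Marchf8, a ubiquitin ligase that lowers class II on thymic epithelium, had 6.94, 7.07 and 7.38 in knockout and 6.15, 6.40 and 6.26 in wild type and rose by 0.86 (SE 0.18, limma adjusted p = 0.0327). Without background correction the Marchf8 difference was 0.40 and its adjusted p 0.0632. Marchf1, the related ligase of dendritic cells and B cells, had 7.57, 6.47 and 7.01 in knockout and 8.12, 7.86 and 7.87 in wild type. The Marchf1 difference of -0.94 (SE 0.29) had a limma adjusted p of 0.0963, and of 0.0346 with the block.

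Genes of the proteins that hold Ciita on the promoter were not called higher. Of 6 tested promoter factor genes 1 was called lower: Nfyb, a subunit of the Y box factor NF-Y, had log2 signals of 9.95, 9.33 and 10.09 in knockout and 11.15, 10.85 and 11.04 in wild type, a fall of 1.22 (SE 0.24, limma adjusted p = 0.0285). Nfya (0.10) and the RFX subunit Rfxap (-0.17) overlapped between the genotypes and did not pass. Nfyc (-0.26) and the RFX subunit Rfxank (-0.40) were lower without overlap and did not pass either (limma adjusted p 0.304 and 0.169). Creb1 differed by -0.91 (SE 0.35) and passed only with the replicate block (limma adjusted p 0.157 without it and 0.0304 with it). Rfx5, the DNA-binding RFX subunit, was not above background on any array.

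Upstream of Ciita, the interferon gamma route held 5 tested genes, of which 1 was called in each direction. Irf1, a transcription factor that acts on the interferon-responsive Ciita promoter, had log2 signals of 13.50, 13.36 and 13.66 in knockout and 12.85, 12.55 and 12.84 in wild type. It rose by 0.76 (SE 0.17, limma adjusted p = 0.0385). Ifngr2, a chain of the interferon gamma receptor, had 8.53, 8.56 and 8.49 in knockout and 9.89, 9.06 and 9.96 in wild type and fell by 1.11 (SE 0.26, limma adjusted p = 0.0480). The other receptor chain Ifngr1 (0.14) and the kinase Jak2 (0.04) did not pass. None of the 4 regulators tied to myeloid and B cell use of Ciita passed: Irf8 differed by 0.51, Irf4 by -0.43, Spi1 by -0.60 and Spib by -0.60 (Spib limma adjusted p 0.169, and 0.0310 with the block); Spi1 and Spib alone had unadjusted p-values under 0.05, of 0.0481 and 0.0457.

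Both receptors of class II were called lower. Cd4, the co-receptor that binds class II, had log2 signals of 5.66, 4.78 and 4.97 in knockout, where 1 of 3 arrays was above background, and 10.17, 9.31 and 9.89 in wild type. Cd4 fell by 4.65 (SE 0.32, limma adjusted p = 0.00201), a size that depends on the background step because the knockout probe is mostly at background: the difference was -3.72 with an offset of 50 and -2.74 without background correction, and both passed (limma adjusted p 0.00180 and 0.00293). Lag3, an inhibitory receptor for class II, had 7.33, 7.85 and 7.39 in knockout and 8.65, 8.59 and 8.70 in wild type and fell by 1.12 (SE 0.19, limma adjusted p = 0.0190). With median centring, Irf1, Ifngr2 and Nfyb missed the threshold (limma adjusted p 0.0577, 0.0593 and 0.0502). Among the 8 called partners, Cd4 was the one that passed when each array was left out in turn. Cd83 missed the threshold without knockout replicate 1 alone (adjusted p 0.0506). The other 6 missed it without at least 3 of the single arrays, among them, for each, knockout replicate 1 and wild-type replicates 1 and 3; without knockout replicate 1 their adjusted p-values were 0.112 (Ctsl), 0.0941 (Marchf8), 0.0976 (Nfyb), 0.143 (Irf1), 0.157 (Ifngr2) and 0.0917 (Lag3).

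**Figure D4:**
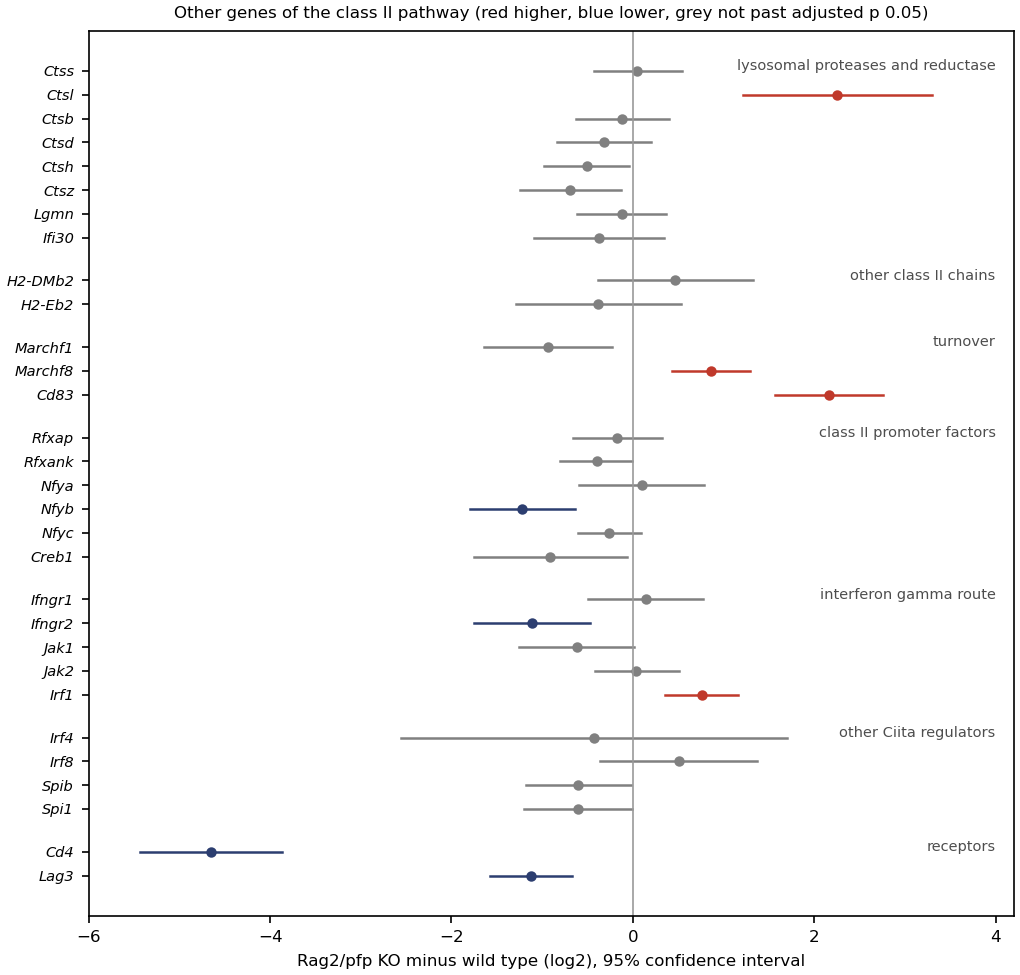
Difference in log2 signal, Rag2/pfp KO minus wild type, with its 95% confidence interval for the 30 tested partner genes of the pathway, grouped by role; red was called higher, blue lower and grey did not pass an adjusted p of 0.05. Ctsl at 2.25 and Cd83 at 2.16 stand furthest right and Cd4 furthest left, at a size that depends on the background step.

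Markers of the cell types that display class II differed between the genotypes. Of 11 tested cortical epithelium genes, 10 were called higher, with a median difference of 1.95 and summed normalized signals of 110466 to 146385 in knockout and 29298 to 54748 in wild type. Dll4, the Notch ligand of cortical epithelium, rose by 2.30 (SE 0.19, limma adjusted p = 0.00406), Ly75 by 2.24 and the thymus protease Prss16 by 2.15. Foxn1, the transcription factor of thymic epithelium, was not above background on any wild-type array and was at least 1.91-fold higher in knockout (limma adjusted p = 0.0198). It entered the test through the knockout arrays alone. The count of 10 cortical genes rested on single arrays: it was 1 without knockout replicate 1, 2 without wild-type replicate 1, 1 without wild-type replicate 3 and 4 without knockout replicate 3. The cortical list shares Ctsl with the partner list.

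Of 10 tested medullary genes, 3 were called lower, beside 5.57% of all tested genes. With the replicate block 6 were lower, beside 11.8% of all tested genes. Summed normalized signals were 2065 to 5564 in knockout and 11168 to 29402 in wild type. The chemokine Ccl21a fell by 3.43 (SE 0.52, limma adjusted p = 0.0149) and the keratin Krt14 differed by -3.06 (limma adjusted p = 0.0139). Cd80, a costimulatory ligand, was not above background on any knockout array and was at least 1.59-fold lower there (limma adjusted p = 0.0480). Cd80 and Tnfrsf11a entered the test through the wild-type arrays alone, so the medullary count rests in part on the detection filter. Aire, the driver of self-antigen expression, differed by -2.25 (SE 0.62, limma adjusted p 0.0712, and 0.0112 with the block). Krt5 (0.14), Cldn4 (-0.44) and Ctss (0.05) overlapped between the genotypes and did not pass. Without Ccl21a, the summed normalized signals were 1342 to 3499 in knockout and 3781 to 9853 in wild type. The medullary count was 0 without knockout replicate 1, without wild-type replicate 1 or without wild-type replicate 3.

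B cell genes were lower as well, with 6 of 9 tested genes called lower, a median difference of -2.06 and summed normalized signals of 1450 to 2570 in knockout and 5215 to 6546 in wild type. Cd79a, which carries the signal of surface immunoglobulin, was not above background on any knockout array, at 4.75, 4.86 and 4.77, against 9.28, 9.68 and 9.52 in wild type, and was at least 15.9-fold lower in knockout (limma adjusted p = 0.000216). Fcmr, the IgM Fc receptor, was at least 27.7-fold lower on the same terms, and Pou2af1 fell by 3.50. The fall was not shared by all tested genes. Cd79b (-0.54, limma adjusted p 0.212) did not pass, and Blk (-0.16) and Ebf1 (0.38) overlapped between the genotypes and did not pass. Pax5 and Cr2 were not above background on any array. Cd79a, Fcmr, Fcer2a and Tnfrsf13c were detected on no knockout array and entered the test through the wild-type arrays alone. The B cell count and median thus rest in part on the detection filter. The B cell count was 4 to 6 when each array was left out in turn.

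None of 6 tested dendritic genes was called by limma at 0.05, and summed normalized signals were 1395 to 2300 in knockout and 1491 to 3102 in wild type. The chemokine gene Ccl17 alone had an unadjusted p under 0.05 (a difference of -2.0, unadjusted p 0.0304, limma adjusted p 0.134, and 0.00949 with the block). Ccl17 overlapped between the genotypes, as did the other tested genes, Batf3 (-0.75), Itgae (-0.28), Zbtb46 (0.06), Siglech (0.26) and Clec10a (0.48). Cd209a, detected on 2 knockout arrays and on no wild-type array, was not tested. Its knockout signals lay above the wild-type ones without overlap, by a narrow gap. The defining genes Itgax, Flt3, Xcr1 and Clec9a were not above background on any array. Of 10 macrophage genes, Lyz2 alone was called, lower by 0.97 (SE 0.22, limma adjusted p = 0.0413). With the replicate block Cd163, a scavenger receptor, passed too (difference -0.70, limma adjusted p 0.0535 without and 0.0436 with the block). Without replicate 2 of both genotypes 4 macrophage genes were called lower, beside 14.0% of all tested genes. The summed normalized signals were 9935 to 10089 in knockout and 11236 to 15200 in wild type. H2-Ob (-1.96) had the sign of the B cell and medullary medians. The 8 members with positive differences, Ciita (0.97) and the partner chain H2-Oa (0.20) among them, had the sign of the cortical median. Whether the amounts of these cell types account for the class II values was not tested.

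**Figure D5:**
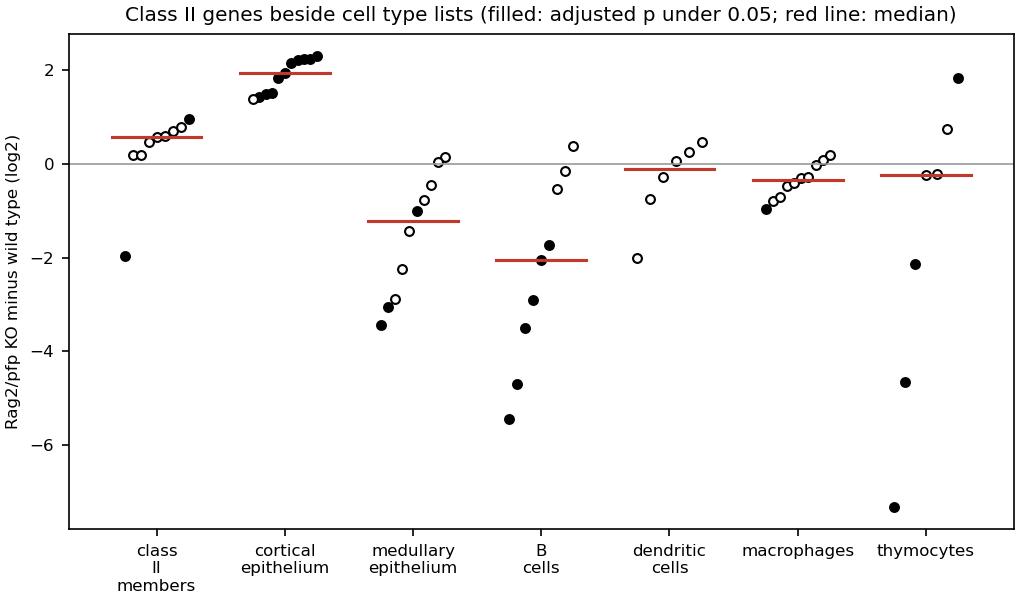
Differences in log2 signal, Rag2/pfp KO minus wild type, of the 9 class II members beside the tested genes of 6 cell type lists; filled circles passed an adjusted p of 0.05, open circles did not, and red lines are medians. The median is 0.58 for the members, 1.95 for cortical epithelium, -1.21 for medullary epithelium and -2.06 for B cells.

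Genes lying between H2-Oa and H2-Eb1 on chromosome 17 in the reference gene table were chosen by position after the values of the members were seen, and none of the 6 with a tested probe was called. The immunoproteasome subunit Psmb9 had log2 signals of 13.39, 12.99 and 13.66 in knockout and 12.78, 12.33 and 12.87 in wild type, without overlap. Its difference of 0.69 (SE 0.24) had an unadjusted p of 0.0278, a limma adjusted p of 0.127, and of 0.0238 with the block. The neighbouring subunit Psmb8 differed by 0.08, the peptide transporter chains Tap1 by 0.04 and Tap2 by 0.23, and the bromodomain gene Brd2 by 0.01, and none of these passed.

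The genes whose signal over the 6 arrays was most like the mean of the 3 classical chains were Rnf8 (Pearson's r = 0.997), Rac3 (0.996), Zfp420 (0.995), Ralgps2 (0.994) and Tdrd3 (0.993). With the mean of each genotype taken off first, Nxf1, Lpar6, Jade2, Wdr78 and Spag1 came closest, each with r = 1.000 after rounding. All 6 points of each correlation share the contrast between replicate 2 and the other arrays, and no link between the genes is read from them.

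The targeted genes were read as a check of the labels. Rag2 had log2 signals of 6.98, 6.73 and 7.88 in knockout and 9.17, 8.17 and 8.78 in wild type. Every knockout array was below every wild-type array, with a difference of -1.51 (SE 0.39) and a limma adjusted p of 0.0579, and of 0.0241 with the block. The brighter Prf1 probe had 9.62, 9.59 and 9.61 in knockout and 10.46, 9.90 and 10.38 in wild type, a difference of -0.64 (SE 0.19, limma adjusted p 0.0866). The other Prf1 probe had 5.63, 5.99 and 5.85 in knockout and 6.08, 5.30 and 5.91 in wild type, which overlapped (difference 0.06, limma adjusted p 0.896). Whether either probe sits in the disrupted stretch of its gene is unknown from the labels, so they check the genotype in part only.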

How the data were processed

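Intensities were deposited as raw linear values, per the file headers, and the submitters' processing notes name GenomeStudio 2011.1. Each intensity is deposited with a detection p-value, per the file headers. A second table of log2 values deposited by the authors differed from quantile normalized log2 intensities by at most 5e-07 and had a median of 7.48 in every column; it is not centred on 0, and its processing steps are not stated in the labels.

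The neqc function of limma 3.58.1 in R 4.3.3 (offset 16) corrected the background by the detection p-values, quantile normalized the arrays and took log2. Of 25697 probes, the 14097 detected at p under 0.05 on 3 or more of the 6 arrays entered the test. Knockout and wild type were compared with lmFit and eBayes, 3 arrays each, without a block, with Benjamini-Hochberg adjustment over all tested probes and a threshold of 0.05. The brightest tested probe on average stands for a gene, and differences are knockout minus wild type. Where every array of a genotype was at background, the fold is a bound, taken from the weakest detected signal of each array, or from the probe's own where that is stronger. Summed normalized signals are linear neqc values (2 to the power of the log2 signal) over the tested genes of a list.

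The deviations of same-numbered arrays from their genotype means correlated at 0.104, 0.750 and 0.559 for replicates 1, 2 and 3, all over 0.1, so the replicate number was also used as a block. The sample titles carry these numbers and the file headers carry matching tags, but neither says what a shared number stands for. Its use as a block was decided from these correlations. The pairing is weak for replicate 1, since knockout replicate 1 correlated as well with wild-type replicate 3, at 0.108. Knockout replicate 3 correlated more with wild-type replicate 1, at 0.727, than with its own number. Tables and motif searches used Python 3.11.15, numpy 2.4.6, pandas 2.3.3 and scipy 1.17.1, and figures matplotlib 3.10.9. Alternatives were other background, scaling, offset and detection settings, the authors' log2 values, array weights, trend and robust moderation, averaging the probes of a gene, and leaving out each array. The members, the lists and the tests were chosen with earlier results of these data known. The genes named are all members, up to 6 called and up to 4 other genes per list, and the targeted genes. Also named are 5 like-pattern genes per measure. The region's neighbours and further list genes (such as Marchf1, Creb1, Spib, Aire and Cd209a) were chosen after their values were seen. Thymocyte and thyroid and parathyroid lists were also run: 1 of 7 thymocyte genes was called higher and 3 lower, and 1 of 2 thyroid and parathyroid genes lower. That last gene, Tg, entered the test through the wild-type arrays alone.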

Additional observations from a re-analysis of the deposited data

How the results depend on the processing

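For single probes, no call of a member changed with no background correction (which gives the authors' log2 values), detection on all arrays, an offset of 50, or trend and robust moderation. The count of members called higher, 1 in the reported fit, was 0 with median centring, 0 with no detection filter, 4 with the replicate block, 5 with array weights, and 0 to 2 when leaving out 1 array in turn. Of 2 alternatives chosen after seeing the data, leaving out replicate 2 of both genotypes gave 4 and the mean of heart transcripts as a covariate gave 5; these settings called 28.4% and 22.6% of all tested probes, against 11.1% in the reported fit. The count of members called lower, 1, was 0 with no detection filter and 0 to 1 when leaving out 1 array in turn. Partners called higher, 4, were 0 to 3 when leaving out 1 array in turn, and partners called lower, 4, were 1 to 4. The partners called lower were 2 with median centring, 7 with the replicate block, 14 with array weights and 8 without replicate 2 of both genotypes. Small differences turned: leaving out 1 array in turn gave -0.07 to 0.44 for H2-Eb1, negative without wild-type replicate 2, and -0.13 to 0.48 for H2-Oa, negative without wild-type replicate 2 and -0.00 without knockout replicate 1. The direction of Ciita and of H2-Ob held in all 18 settings, the reported one included and the authors' values counted beside the same values without background correction, and Ciita passed in 11 of them and H2-Ob in 13. The replicate block moved the called probes over the whole table to 3308, against 1559 without it. Array weights, fitted gene by gene, called 7166 of 14097 probes, so a call under them says little. Leaving out knockout replicate 1 left 212 called probes, and wild-type replicate 1 or 3 left 243 or 216; the cause was not tested. A slide block was not run, because no header names the slide of an array. With 3 arrays against 3, the within-array quantities could not reach p = 0.05 and stay at exact permutation p-values of 0.1 or 0.2, or 0.25 when paired by replicate number.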
